A study of Mus musculus with 45 samples.

Results

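Translation initiation factors and aminoacyl-tRNA synthetases were followed through transcription block and metabolic RNA labelling in NIH-3T3 cells, an established mouse embryonic fibroblast line. Members were the genes whose symbol begins with Eif1 to Eif6 or is that of a tRNA synthetase, read from probe sets that carry exactly 1 gene symbol, and a gene with several was represented by the one with the highest mean intensity on the 45 arrays. This gave 79 genes of the 13232 with such a probe set: 46 initiation factors and their regulators, 19 cytosolic synthetases and 14 mitochondrial synthetases. Synthetase classes follow the symbol, so a gene whose enzyme works in both compartments counts as cytosolic. They have 186 one-symbol probe sets, and 7 probe sets that share a matching symbol with others were left out.

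RNA was measured on 45 Affymetrix arrays in 11 groups, all of NIH-3T3 cells between passages 5 and 15 and about 80% dense at the start, for which the labels name no genetic change. Treatment began with fresh medium that held the drug or the label. Total RNA was taken before and 1 h and 2 h after 5 µg/ml actinomycin D, which blocks transcription. Newly transcribed RNA was isolated through 4-thiouridine (4sU), a uridine analogue that marks RNA made during the labelling period, after 15 min or 30 min at 500 µM and after 60 min at 200 µM. From labelled cells, total RNA was taken at 30 min and 60 min, and pre-existing RNA, which lacks the label, at 60 min. A second 60 min experiment with newly transcribed and total RNA carries the name 2F, which the labels do not explain. Titles of the 15 min and of both 60 min groups hold the word mock, without explanation, and those of the 30 min and actinomycin D groups do not. Groups had 3 arrays, except newly transcribed and total RNA at 30 min with 9 each. Nothing in the labels says that replicates were separate cultures, so p-values measure the spread between these arrays, which may be technical.

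Initiation factors bring the small ribosomal subunit, the initiator tRNA and the capped mRNA together. The eIF2 complex carries the initiator tRNA, eIF2B recharges eIF2 with GTP, and stress kinases phosphorylate eIF2 and so restrain that recharging. The eIF3 complex is a large scaffold on the small subunit, while the eIF4 group binds the cap and unwinds the mRNA leader. Aminoacyl-tRNA synthetases load each tRNA with its amino acid, and separate nuclear genes encode most of the enzymes that work in mitochondria. Several cytosolic synthetases sit together in the multisynthetase complex, and a number of cytosolic synthetase genes are known targets of Atf4, the transcription factor of the amino acid response.

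All 11 fibroblast markers examined lay at a log2 intensity of 7 or more in untreated cells, and 3 epithelial, 2 leukocyte and 3 endothelial or muscle markers on the arrays lay below 5. Correlations over probe sets within a group were 0.977 or higher outside the first 60 min experiment and the 30 min experiment. In the first 60 min experiment, total RNA replicate 2 correlated with the others at 0.834 to 0.914 and newly transcribed replicate 1 at 0.830 to 0.831. The latter had a log2 difference of 3.07 between the 3′ and 5′ control probe sets of Gapdh. The 30 min arrays fell into sets of replicates 1, 4 and 7, of 2, 5 and 8 and of 3, 6 and 9, with correlations of 0.991 to 0.996 within and 0.912 to 0.971 between sets of total RNA. In newly transcribed RNA these correlations overlapped, at 0.974 to 0.993 within and 0.906 to 0.987 between sets. The labels do not explain the sets, so the calls at 30 min were also counted with their means as 3 replicates. Standard errors and p-values at 30 min count the 9 arrays singly unless stated. They may be too small if the arrays of a set are technical repeats.

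Differences are log2 changes ± standard error from limma, fitted over all probe sets with a mean log2 intensity of 5 or more. A call needed a fold change of 2 or more and an adjusted p (Benjamini-Hochberg over all these probe sets) under 0.05. Of the 79 members, 74 passed this filter in the fits of the 60 min and actinomycin D experiments and 72 at 30 min. Ears2, Mars2 and Vars2, of the mitochondrial synthetases, Eif4e3 and Eif5a2 lay below it throughout, and Fars2 and Nars2 at 30 min. The filter uses the mean over groups, so a gene that is high in only 1 group can pass through that group.

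In newly transcribed RNA most members had lower values than in total RNA, with negative changes in 61 of 72 at 30 min, 49 of 74 at 60 min and 50 of 74 in 2F, beside 60.9%, 56.5% and 51.4% of all genes. Few members were called on the other side. After 30 min of label 26 of 72 members were called lower and 2 higher, and the same 28 calls stood with the sets averaged. Among all probe sets tested 25.6% were called lower and 23.7% higher (24.7% and 23% with sets averaged), and with 1 probe set per gene 29.1% of genes were lower and 14.4% higher. The members' shares were 36.1% lower and 2.78% higher. Their median change was -0.77, beside -0.33 over all genes. In the first 60 min experiment 23 of 74 members were called lower and 3 higher, against 21.8% and 17.7% of all probe sets. With 1 probe set per gene these shares were 24.6% and 15.6%. Leaving out replicate 3 of newly transcribed and total RNA reduced the lower calls to 11, and to 2 where replicate 3 of pre-existing RNA, which shares the fit, was left out too. Leaving out replicate 1 raised the higher calls to 6, and leaving out both arrays that stand apart gave 5 higher. In the 2F experiment 19 of 74 were called lower and 2 higher, against 21.8% and 24% of all probe sets. With 1 probe set per gene these shares were 22.5% and 18.8%. The members' counts rest on the brightest probe set of each gene. Of members with several probe sets tested, 24 of 39 had the same call in all of them at 30 min. At 60 min these were 23 of 40, and in 2F 20 of 39. The median range between a gene's probe sets was 0.62, 0.80 and 0.79 on the log2 scale.

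**Figure D1:**
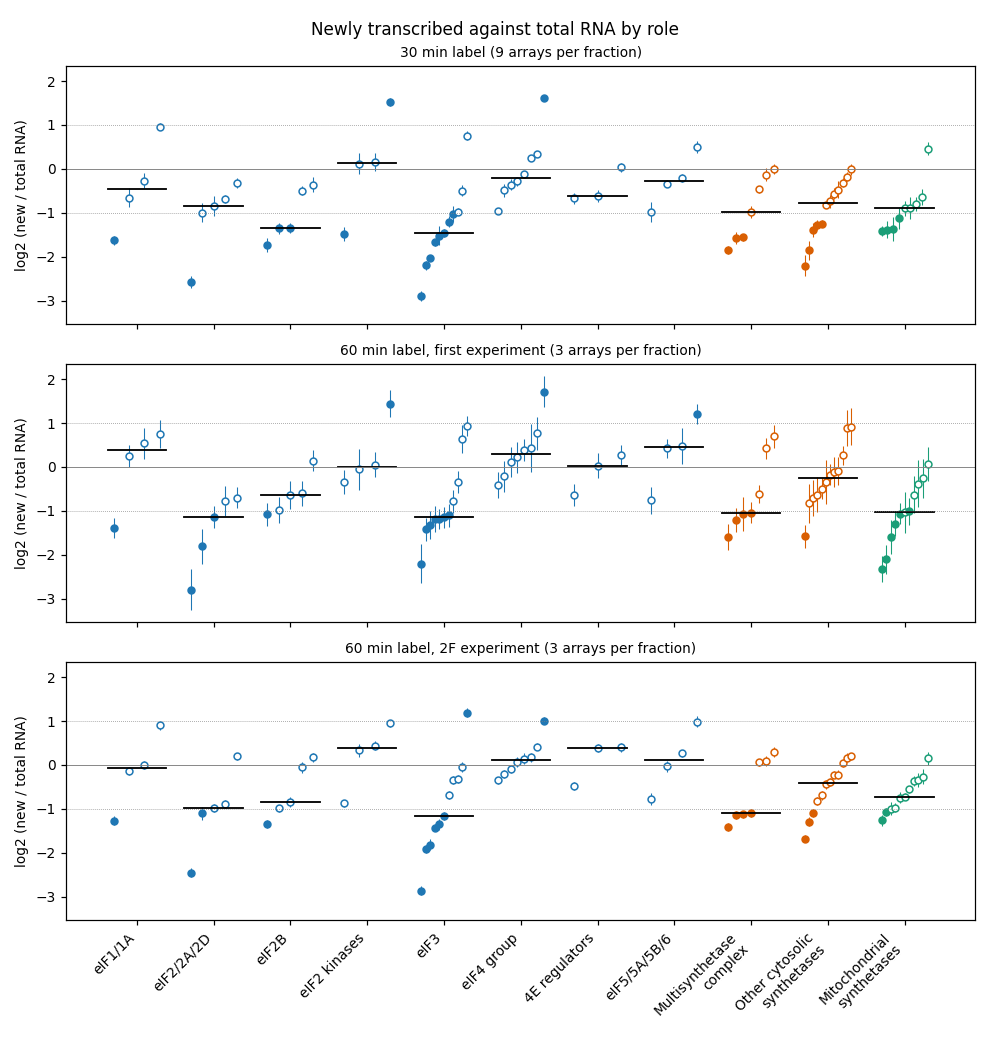
Log2 change of newly transcribed over total RNA for each member (vertical axis) by role (horizontal axis) in 3 labelling experiments, with standard errors. Filled points passed the call, open points did not, black lines are medians of the role and dotted lines mark a 2-fold change. The eIF3 median was -1.46 at 30 min, while the eIF4 group lay around 0.

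By class, 14 of 44 initiation members were called lower at 30 min (median -0.64), 8 of 19 cytosolic synthetases (median -0.82) and 4 of 9 mitochondrial ones (median -0.90). The lower calls at 60 min were 12 of 44, 5 of 19 and 6 of 11. In the 2F experiment they were 10 of 44, 7 of 19 and 2 of 11. Of all genes, 29.1% were called lower at 30 min, 24.6% at 60 min and 22.5% in 2F. The initiation counts lie near these shares. All members called higher in these experiments were initiation factors or an eIF2 kinase. The mitochondrial medians rest on dim probe sets. Over the tested mitochondrial genes a floor of 32 on the intensities moved the median from -0.90 to -0.71 at 30 min. At 60 min it moved from -1.04 to -0.51. Over all 14, with those below the filter, the floored medians were -0.64 and -0.28. Of the 72 members tested in all 3 experiments, 12 were called lower in every one, 1 was called higher in every one and 36 were called in none. Of all probe sets tested in the 3 experiments 13.6% were called lower and 11.7% higher in every one, and with 1 probe set per gene 15.5% of genes were lower, 8.84% higher and 40.6% called in none. The members' count lower in every one is thus near the background. It was 11 with the replicate number as a block at 60 min or with a floor of 32, in both cases without Qars. It was 10 without replicate 2 of newly transcribed and total RNA at 60 min and 5 without replicate 3 (Eif1ax, Eif2d, Eif3k, Eif3m and Farsb). With the same replicate of pre-existing RNA also left out of the fit it was 8 and 0, with 0 called higher in every one by limma in either case. The 12 comprise 8 of 44 initiation factors and 4 of 19 cytosolic synthetases, with 0 of 9 mitochondrial synthetases.

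Most eIF3 subunits were lower in newly transcribed than in total RNA. At 30 min 8 of 11 were called lower in newly transcribed RNA, at 60 min 7, and in the 2F experiment 6, with medians of -1.46, -1.15 and -1.17. The 60 min median was level with that of the eIF2, eIF2A and eIF2D genes, at -1.14. Eif3k, a small subunit, ranged from 1870 to 2541 in total RNA at 30 min (median 2066) and from 214 to 395 in newly transcribed RNA (median 287). The ranges lay far apart, with a change of -2.89 ± 0.12 (limma adjusted p = 4.2e-14). With the sets averaged it was -2.89 ± 0.22 (limma adjusted p = 1.0e-04). At 60 min Eif3k stood at 2265, 838 and 1548 in total and at 563, 275 and 195 in newly transcribed RNA. The second total RNA array was low, and the ranges again did not overlap. In the 2F experiment the gene stood at 2107, 2162 and 2257 in total and at 268, 302 and 327 in newly transcribed RNA, a change of -2.87 ± 0.10 (adjusted p = 8.5e-08), close to the 30 min value.

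Eif3f and Eif3h, subunits of the MPN domain pair in the octameric core, changed by -2.19 ± 0.11 and -2.03 ± 0.07 at 30 min. In total RNA at 30 min Eif3f ranged from 4663 to 5281 (median 4859), and in newly transcribed RNA from 889 to 1498 (median 963). Within the newly transcribed group the arrays of replicates 1, 4 and 7 were the high ones. Eif3i, Eif3l and Eif3m were called lower in every labelling experiment too, Eif3e at 30 min and 60 min and Eif3b at 30 min. Eif3c and Eif3d lay between -0.97 and 0.65 and were not called in any. The choice of probe set matters here. With the mean over a gene's probe sets Eif3h came to -0.62 and Eif3l to -0.44 at 30 min, neither called.

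Eif3a, the largest subunit and the scaffold of the complex, stood on the other side. In the 2F experiment it was 5177, 5102 and 5673 in total and 13063, 11330 and 12079 in newly transcribed RNA, a called change of 1.19 ± 0.09 (adjusted p = 3.0e-06). The 30 min change of 0.76 ± 0.10 and the 60 min change of 0.93 ± 0.24 had adjusted p of 7.1e-07 and 0.0099 but were less than 2-fold. With the sets averaged the 30 min change was 0.76 ± 0.20 (limma adjusted p = 0.013). In each of the 3 experiments every newly transcribed array lay above every total RNA array. The mean over its probe sets in the 2F experiment was 0.69, which was not called.

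**Figure D2:**
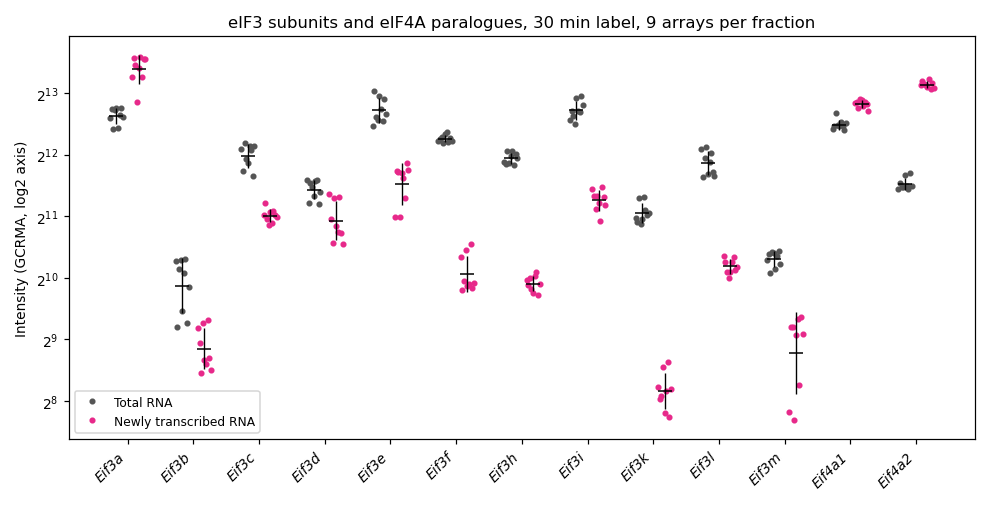
Intensity of each eIF3 subunit and of Eif4a1 and Eif4a2 on the 9 total RNA arrays (grey) and 9 newly transcribed RNA arrays (pink) at 30 min, on a log2 axis, with the mean and SD of the log2 values in black. Eif3k shows the widest gap with total RNA above, while Eif3a and Eif4a2 had newly transcribed RNA above.

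Of the cap-binding eIF4 group, 8 members were tested. Eif4a2, which encodes a paralogue of the DEAD-box helicase that unwinds mRNA leaders, was the 1 member called higher in all 3 experiments. It ranged from 2792 to 3347 in total RNA at 30 min (median 2864) and from 8538 to 9598 in newly transcribed RNA (median 8945), a change of 1.61 ± 0.06 (adjusted p = 4.4e-14). The ranges were narrow and far apart, and with the sets averaged the change was 1.61 ± 0.17 (limma adjusted p = 2.5e-04). At 60 min the change was 1.71 ± 0.36 (adjusted p = 0.0036), and in the 2F experiment 1.01 ± 0.08 (adjusted p = 3.4e-06), from 3071, 3231 and 3167 to 6189, 6500 and 6320. This last value is at the edge of 2-fold and was 0.83, no longer called, when the median of each array was set equal.

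Eif4a1, the other helicase paralogue, was close to even. In total RNA at 30 min it ranged from 5375 to 6517 (median 5664) and in newly transcribed RNA from 6658 to 7684 (median 7312), a change of 0.34 ± 0.06. Its changes at 60 min and in 2F were 0.76 ± 0.37 and 0.42 ± 0.08, none called. The cap-binding protein gene Eif4e changed by -0.36 ± 0.13 at 30 min and 0.43 ± 0.55 at 60 min, the latter with total RNA replicate 2 at 422 and the others at 2109 and 1539. The scaffold relatives Eif4g2 and Eif4g3 and the helicase partners Eif4b and Eif4h were not called in any of the 3 experiments. Eif4ebp1, whose protein sequesters eIF4E, changed by -0.62 ± 0.14, -0.65 ± 0.25 and -0.48 ± 0.09, all under 2-fold. The mean of the Eif4e2 probe sets hides opposite signs, since 2 of the 4 were called at 30 min, 1 at -1.37 and 1 at 3.27, while the probe set used here gave -0.29.

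Genes of eIF2, eIF2A, eIF2D and eIF2B were called lower or not called, with differences within each group. Eif2d, a noncanonical initiator tRNA carrier, was among the most depleted members at -2.57 ± 0.13, -2.80 ± 0.47 and -2.45 ± 0.11. In total RNA at 30 min it ranged from 336 to 485 (median 401) and in newly transcribed RNA from 40.6 to 82.9 (median 73.0), near the lower end of the filter. Eif2s2 and Eif2s3x, which encode the beta and gamma subunits of eIF2, were not called in any experiment, with changes between -0.98 and 0.19. Eif2a, which encodes the separate factor eIF2A, was called lower at 60 min (-1.14 ± 0.26). Eif2s3y, the Y-linked copy of the gamma subunit gene, was called lower at 60 min (-1.81 ± 0.41) and in 2F (-1.10 ± 0.15). The exchange factor eIF2B had 3 of 5 genes called lower at 30 min: Eif2b5, the catalytic subunit gene, at -1.74 ± 0.16, Eif2b4 at -1.36 ± 0.13 and Eif2b3 at -1.35 ± 0.11. Eif2b5 ranged from 373 to 683 in total RNA (median 561) and from 115 to 257 in newly transcribed RNA (median 144), and averaged over its probe sets it came to -0.85, not called.

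Among the 4 eIF2 kinase genes, Eif2ak3 (PERK, the sensor of the endoplasmic reticulum) was called higher and Eif2ak1 (HRI, the heme-regulated kinase) lower at 30 min. Eif2ak3 ranged from 82.4 to 117 in total RNA (median 93.4) and from 228 to 328 in newly transcribed RNA (median 267), a change of 1.52 ± 0.10 (adjusted p = 1.7e-11) with no overlap. With the 30 min sets averaged it was 1.52 ± 0.19 (limma adjusted p = 4.9e-04). The 60 min change was 1.44 ± 0.31 (adjusted p = 0.0043), and it lost its call without replicate 3, at 1.26. In 2F it was 0.95 ± 0.09, from 87.5, 78.1 and 84.9 to 159.6, 163 and 159.95, just under 2-fold. Eif2ak1 changed by -1.48 ± 0.16, -0.05 ± 0.46 and -0.88 ± 0.09, so the call rests on the 30 min experiment. Eif2ak2 (PKR) and Eif2ak4 (GCN2) lay between -0.35 and 0.44 with no call.

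Other early and late factors had few calls. Eif1ax, which encodes the X-linked eIF1A that assists scanning, was called lower throughout at -1.63 ± 0.09, -1.39 ± 0.23 and -1.27 ± 0.10. A dimmer probe set of the same gene was called higher at 1.64 at 30 min, and the mean over its probe sets was -0.26. Its homologue Eif1a changed by 0.96 ± 0.08, 0.54 ± 0.35 and 0.90 ± 0.11, all short of 2-fold. Eif5, whose protein triggers GTP hydrolysis by eIF2, stood at 2319, 1946 and 1817 in total and at 5352, 4605 and 4076 in newly transcribed RNA at 60 min. That change of 1.21 ± 0.23 (adjusted p = 0.0021) was called, while those at 30 min and in 2F were 0.50 ± 0.13 and 0.98 ± 0.13. Averaged over its probe sets Eif5 was 0.94 at 60 min, not called, and 1.48 at 30 min, called.

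Cytosolic synthetases had 0 calls above total RNA by limma in the 3 experiments, with 0, 1 and 2 of 19 higher at an unadjusted p below 0.05. Within the multisynthetase complex, Kars (lysine), Mars1 (methionine) and Qars (glutamine) were called lower in all 3. Qars changed by -1.08 ± 0.39 at 60 min (adjusted p = 0.044), with overlapping arrays, and was not called there with the replicate number as a block (adjusted p = 0.056) or with a floor of 32 (adjusted p = 0.15). Kars ranged from 1107 to 1443 in total RNA at 30 min (median 1159) and from 279.7 to 405 in newly transcribed RNA (median 336), a change of -1.84 ± 0.09 (adjusted p = 3.2e-13). Mars1 ranged from 758 to 943 in total (median 843) and from 228 to 330.1 in newly transcribed RNA (median 279.6), a change of -1.56 ± 0.08. Both genes had ranges that lay well apart. With the sets averaged the changes were -1.84 ± 0.19 and -1.56 ± 0.18 (limma adjusted p = 2.0e-04 and 3.2e-04). Lars (leucine) was called lower at 60 min and in 2F, at -1.59 ± 0.29 and -1.09 ± 0.10.

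In the same complex Rars (arginine) changed by -0.01 ± 0.11, 0.42 ± 0.24 and 0.06 ± 0.09. Eprs, the fused glutamate and proline enzyme, lay at -0.13 ± 0.15, 0.70 ± 0.26 and 0.30 ± 0.11, and Iars (isoleucine) at -0.47 ± 0.08, -0.61 ± 0.21 and 0.10 ± 0.11. Genes of 1 protein complex thus ranged from called lower to near even in the same RNA.

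Of the 12 other cytosolic synthetases, Farsb, the beta subunit of the phenylalanine enzyme, was called lower in all 3 experiments at -1.25 ± 0.08, -1.58 ± 0.26 and -1.10 ± 0.09. Its partner subunit gene Farsa was not called, at -0.47 ± 0.20, 0.89 ± 0.41 and -0.22 ± 0.11. Vars (valine) ranged from 259 to 750.2 in total RNA at 30 min (median 587) and from 69.9 to 178 in newly transcribed RNA (median 107), a change of -2.20 ± 0.24 (adjusted p = 4.3e-08). With the sets averaged the Vars change was -2.20 ± 0.39 (limma adjusted p = 0.0020). Its total RNA values followed the sets of arrays, since replicates 2, 5 and 8 stood at 273, 321 and 259 and the others at 518 or more. Sars (serine) split the same way, with 1202, 1229 and 1255 in those arrays and 1775 to 2181 in the others, and changed by -1.40 ± 0.16 at 30 min, -0.70 ± 0.41 at 60 min and -1.67 ± 0.09 in 2F. Cars (cysteine) was called lower at 30 min at -1.86 ± 0.21 and was -0.12 ± 0.34 at 60 min. Wars (tryptophan) was the remaining call at 30 min, at -1.28 ± 0.11. Aars (alanine), Tars (threonine) and Nars (asparagine) lay between -0.49 and 0.91 with no call, and Gars (glycine) at -0.82 ± 0.07, -0.17 ± 0.24 and -0.38 ± 0.09.

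Of the mitochondrial synthetases, Rars2, Tars2, Sars2 and Hars2 were called lower at 30 min, at -1.39 ± 0.19, -1.42 ± 0.11, -1.37 ± 0.28 and -1.13 ± 0.23. At 60 min Rars2, Iars2 (-2.11 ± 0.34), Nars2, Lars2 (-1.29 ± 0.29), Hars2 and Wars2 were called lower, and in 2F only Fars2 and Iars2 (-1.07 ± 0.10). For Rars2, Sars2 and Hars2 at 30 min, for Rars2, Nars2, Hars2 and Wars2 at 60 min and for Fars2 in 2F, newly transcribed RNA had a mean below the intensity of 32, so these changes are not exact. With values under 32 set to 32, Rars2 was still called, at -1.08 ± 0.10 and -1.85 ± 0.21, and Sars2 at -1.18 ± 0.27. Hars2 was then not called at 30 min (-0.66) or 60 min (-0.28), nor were Nars2 (-0.88) and Wars2 (-0.51) at 60 min and Fars2 in 2F (-0.83). Without replicate 3 at 60 min Lars2 was not called, and Nars2 was not called without replicate 2 or 3. Iars2, the mitochondrial isoleucine enzyme, stood at 287, 427 and 369.6 in total and at 49.9, 93.7 and 122 in newly transcribed RNA at 60 min, with no overlap. Its cytosolic counterpart Iars was not called in any of the 3. Yars2, the mitochondrial tyrosine enzyme, was the 1 tested mitochondrial gene above 0 at 30 min, at 0.46 ± 0.14.

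The members' order was close between the 30 min and 2F experiments, with a Spearman correlation of 0.92 over 72 members, and looser between the first 60 min experiment and the others (0.68 over 72 with 30 min and 0.73 over 74 with 2F). Members share arrays and preparation, so this is a description. Tested as an interaction, the difference in newly transcribed over total RNA between 2F and the first 60 min experiment was called for 0 of 73 members (0.0252% of all probe sets were called). Unadjusted p lay below 0.05 for 6 members in 1 direction and 2 in the other, and the lowest limma adjusted p was 0.19, for Rars2. Between the 60 min and 30 min experiments 12 of 72 members were called, against 18.8% of all probe sets. With 1 probe set per gene 10% of genes were called higher and 5.3% lower. The members' count fell to 1, Cars at 1.41, without total RNA replicate 2 of the 60 min experiment. With the 30 min sets averaged it fell to 0.

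**Figure D3:**
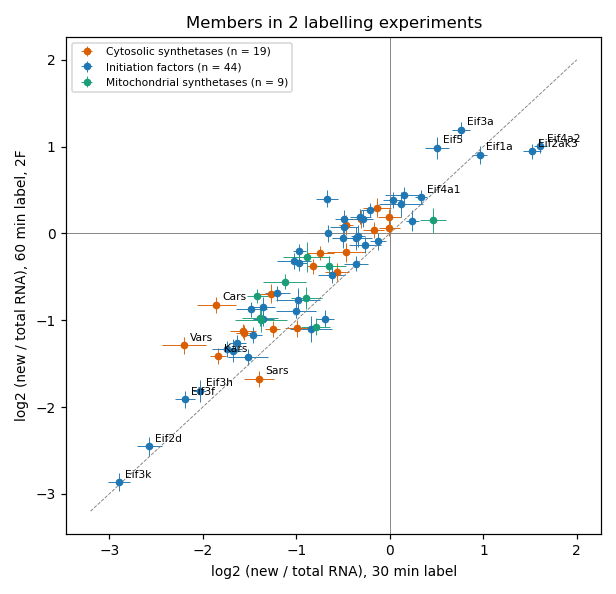
Log2 change of newly transcribed over total RNA at 30 min (horizontal axis) against the 2F 60 min experiment (vertical axis) for 72 members coloured by class, with standard errors and the line of equal values. Points run along the line, many of them above it, with Eif3k and Eif2d at the lower end, Eif4a2 farthest right and Eif3a highest.

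Promoter windows that end 50 bases after the gene's start, from RefSeq on build GRCm38.p6, were matched to 62 members by Entrez identifier. The motif TGATGNAA, the core of the element through which Atf4 and C/EBP factors act on amino acid response genes, was searched on both strands. It occurred in 6 of the 62 and in 4.51% of all 27025 genes. The 6 were Aars, Gars, Iars, Tars and Yars, 5 of 12 cytosolic synthetases with a promoter, and Eif2s3x, while 0 of 13 mitochondrial synthetases had it. All 6 are among the 29 members with a promoter that were not called in any labelling experiment, and 0 of the 10 called lower in all 3 had it. With so few promoters 0 of 10 lies near the share in all 62. Whether the motif goes with the calls was not tested. Stretches of 60 bases around the match are shown for the 4 genes where it lies before the start, with the match, here on the opposite strand, in capitals. They lie at chr6:55037941-55038000 (plus), chr8:111033704-111033763 (plus), chr15:11399659-11399718 (minus) and chrX:94212714-94212773 (minus), and are written 5′ to 3′ on the gene's strand.
Gars: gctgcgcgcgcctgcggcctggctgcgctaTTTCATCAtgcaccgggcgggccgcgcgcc
Aars: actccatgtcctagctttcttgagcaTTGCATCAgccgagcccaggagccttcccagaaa
Tars: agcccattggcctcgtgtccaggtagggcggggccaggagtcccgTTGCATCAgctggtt
Eif2s3x: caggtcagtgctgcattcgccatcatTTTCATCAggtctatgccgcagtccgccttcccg

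The ETS site CCGGAAG, searched on both strands, occurred in 24 of 62 members and in 9.93% of all genes. Among members called lower in all 3 experiments 5 of 10 had it, and 12 of 29 among those called in none. The depleted members Eif3m (chr2:105017049-105017108, minus), Mars1 (chr10:127311787-127311846, minus), Eif3l (chr15:79075162-79075221, plus) and Eif1ax (chrX:159371940-159371999, plus) are shown with the match in capitals, on the opposite strand for all but Eif3m. The E-box CACGTG occurred in 14 of 62 members and 8.09% of all genes. A match is a description of letters and not of binding.
Eif3m: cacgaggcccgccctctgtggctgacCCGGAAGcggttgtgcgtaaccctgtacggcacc
Mars1: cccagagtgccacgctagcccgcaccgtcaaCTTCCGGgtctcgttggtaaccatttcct
Eif3l: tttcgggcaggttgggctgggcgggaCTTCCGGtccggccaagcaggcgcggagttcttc
Eif1ax: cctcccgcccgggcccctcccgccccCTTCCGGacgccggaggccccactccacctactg

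Actinomycin D, which lets transcripts decay without replacement, left nearly all members within 2-fold. After 1 h 0 of 74 members were called higher and 2 lower, against 2.57% and 3.58% of all probe sets. With 1 probe set per gene 0.699% of genes were higher and 3.97% lower. At an unadjusted limma p below 0.05, 24 members were higher. Aars, Eif2b4, Eif3b, Eif3c, Eif3d, Eif4ebp2, Eif5a, Eif5b, Farsa, Sars2 and Vars were lower at that p. After 2 h 0 were called higher and 1 lower, against 0.538% and 9.42% of all probe sets. With 1 probe set per gene these shares were 0.294% and 10.9%. At an unadjusted limma p below 0.05, 11 members were higher. Eif1a, Eif2ak3, Eif2b2, Eif2b4, Eif3a, Eif4a2, Eif4enif1 and Hars2 were lower at that p. The members' median was 0.11 beside 0.06 over all genes. At 2 h 0 of 11 eIF3 genes, 0 of 19 cytosolic and 0 of 11 mitochondrial synthetases were called by limma, with 3, 2 and 3 of them at an unadjusted p below 0.05. Scaling bears on this comparison: with the median of each array set equal, the median of all probe sets moved from 0.095 to 0.428, the share of calls that were higher from 5.4% to 40.6%, and 1 member was called higher.

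Eif2ak3 was the 1 member called at 2 h. It stood at 111, 161 and 132 before treatment, at 114, 89.1 and 106 after 1 h and at 37.8, 58.5 and 43.9 after 2 h. The first hour left overlapping values, and the 2 h arrays lay below those of both earlier times, with a change of -1.53 ± 0.19 (adjusted p = 2.0e-04). Total RNA of labelled cells, which had no actinomycin D, also lay below these untreated arrays for Eif2ak3. The change was -1.75 ± 0.22 in the first 1 h labelling experiment and -0.45 ± 0.14 at 30 min. Those cells come from other experiments, and no group had fresh medium alone. How far blocked transcription accounts for the 2 h fall of Eif2ak3 was not tested. Eif3a stood at 5734, 5737 and 5428 before and at 4278, 3893 and 3524 after 2 h, a change of -0.54 ± 0.11 (adjusted p = 0.0045) that is under 2-fold. Eif4a2 stood at 2942, 3319 and 3272 before and at 2031, 2641 and 2439 after 2 h, a change of -0.43 ± 0.12 (adjusted p = 0.019) under 2-fold, while Eif4a1 changed by -0.13. Eif3k, low in newly transcribed RNA, stood at 1931, 2044 and 1930 before and at 2532, 2307 and 2435 after 2 h, all above the untreated arrays. Across 72 members the Spearman correlation of the 30 min change with the 2 h actinomycin D change was -0.56, and with the 1 h change -0.02. These comparisons share no arrays.

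**Figure D4:**
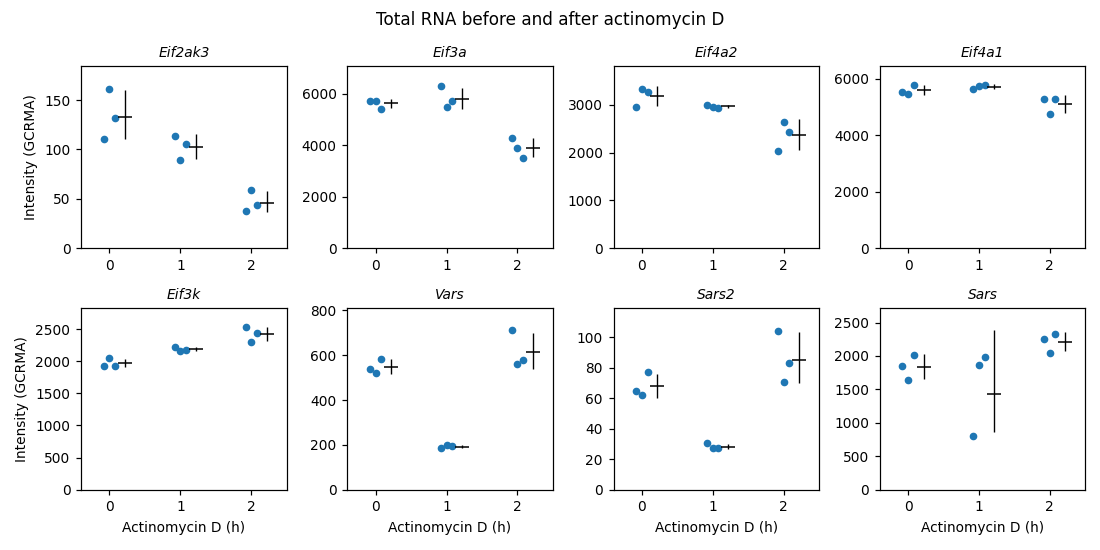
Intensity of 8 members in total RNA before (0 h) and 1 h and 2 h after actinomycin D, 3 arrays each, with the mean and SD of the log2 values in black. Eif2ak3 is lowest at 2 h, Vars and Sars2 are low at 1 h and back at 2 h, and Sars has a single low array at 1 h.

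Vars and Sars2 were low at 1 h and not at 2 h. Vars stood at 539, 522 and 585 before, at 184, 198 and 196 after 1 h and at 710.5, 563 and 578 after 2 h, a called fall of 1.51 on the log2 scale (adjusted p = 7.1e-05) and a called rise of 1.67 ± 0.12 from 1 h to 2 h (adjusted p = 1.4e-05). Sars2, the mitochondrial serine enzyme, stood at 64.9, 62.1 and 77.5, then at 30.4, 27.2 and 27.4, which is below the intensity of 32, and then at 105, 70.9 and 83.3. The 1 h fall was 1.26 on the log2 scale (adjusted p = 6.2e-04). From 1 h to 2 h 2 members were called higher, these 2 genes, and 1 lower, Eif2ak3 at -1.16 ± 0.19, against 2.28% and 7.32% of all probe sets. The Eif2ak3 call was lost without replicate 1 (-0.94) and under both other scalings. The Gapdh 3′ minus 5′ log2 difference was -0.433 to -0.242 at 1 h, and -0.188 to -0.140 before and -0.224 to -0.151 at 2 h. Its part in the Vars and Sars2 values was not tested. In total RNA without actinomycin D, Vars also ranged from 101 to 750.2 over all arrays.

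Total RNA of labelled cells was set against that of cells before actinomycin D. These groups come from different experiments, so experiment and time cannot be told apart. At 30 min 0 of 74 members were called either way, against 0.468% higher and 0.15% lower of all probe sets, with 2 higher and 4 lower at an unadjusted limma p below 0.05. At 60 min 0 were called higher (5 at an unadjusted p below 0.05) and 1 lower, against 1.49% and 0.755%, and in 2F 0 were called, against 3.2% and 0.938%, with 8 higher and 28 lower at an unadjusted p below 0.05. The 60 min call was Eif2ak3 at 47.4, 35.0 and 37.0, a change of -1.75 ± 0.22 (adjusted p = 0.014). It was lost without replicate 1 or 3 and with a floor of 32.

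Cytosolic synthetases lay mostly below the untreated level at 60 min. Of 19, 17 had a negative change in the first experiment (median -0.50) and 15 in 2F (median -0.24), beside 55% and 48.3% of all genes with medians of -0.06 and 0.01, with 0 called in either and 10 and 14 lower at an unadjusted limma p below 0.05. Sars stood at 926, 459 and 731 at 60 min, at 1420, 1477 and 1321 in 2F and at 1852, 1644 and 2020 before treatment. Its change in the first experiment was -1.44 ± 0.28 (adjusted p = 0.053). The mitochondrial medians were -0.31 and -0.08 and the initiation medians -0.14 and -0.03. Both experiments are compared with the same 3 untreated arrays, so their signs are not independent. Without total RNA replicate 2, Cars (-1.02 ± 0.17), Sars (-1.16 ± 0.19) and Eif2ak3 (-1.67 ± 0.22) were called lower at 60 min. In the first experiment Aars had mean log2 intensities of 9.67 in total, 10.70 in pre-existing and 10.58 in newly transcribed RNA. Before treatment it had 10.67. Of the cytosolic synthetases only Hars and Rars lay lower in pre-existing than in total RNA. How far the total RNA arrays of this experiment account for the low values was not tested.

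**Figure D5:**
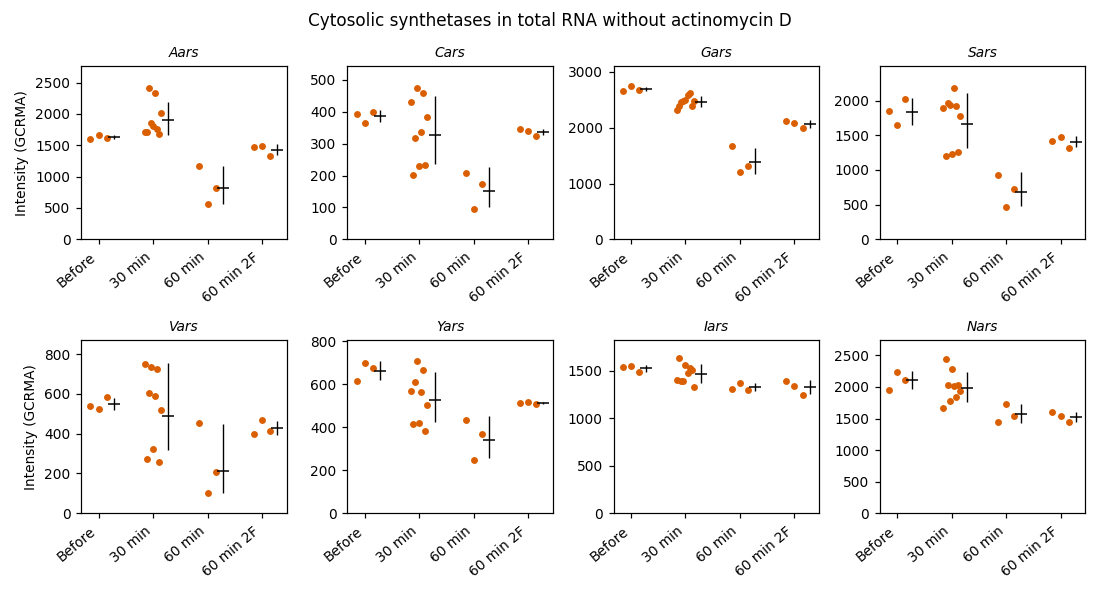
Intensity of 8 cytosolic synthetases in total RNA before treatment (3 arrays), at 30 min of label (9 arrays), at 60 min (3 arrays) and at 60 min in the 2F experiment (3 arrays), with the mean and SD of the log2 values in black. Values at 60 min are the lowest for Aars, Gars and Sars, and 30 min arrays of Vars, Cars and Sars fall into separate levels.

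Pre-existing RNA, the fraction without label at 60 min, differed little from total RNA. No member was called, 0 higher and 0 lower of 74, against 1.87% and 6.96% of all probe sets. With 1 probe set per gene these shares were 1.87% and 2.81%. Unadjusted limma p lay below 0.05 for 12 higher and 1 lower, and 57 of 74 changes were positive (58.9% of all genes), with a median of 0.28 beside 0.16 over all genes. With the replicate number as a block, Cars (1.11 ± 0.26, adjusted p = 0.029) and Fars2 (1.58 ± 0.41, adjusted p = 0.039) were called higher. Fars2 is dim, at 55.7, 10.6 and 33.0 in total RNA, a mean below the intensity of 32, and at 83.1, 78.0 and 80.1 in pre-existing RNA, so its change is not exact. Cars stood at 378, 253 and 366 in pre-existing and at 207, 96.6 and 175 in total RNA.

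Newly transcribed RNA after 15 min was set against 30 min, at the same 4sU dose. Titles of the 15 min arrays hold the word mock and those of 30 min do not, so experiment and label time cannot be told apart. The 30 min arrays count as 9 here, so the p-values may be too small if arrays of a set are technical repeats. Of 68 members tested 1 was called higher and 1 lower, against 10.4% and 7.33% of all probe sets. With 1 probe set per gene 1.83% of genes were higher and 8.93% lower. Eif3k was higher at 15 min, at 726, 667 and 702 against a range of 214 to 395 at 30 min (1.29 ± 0.18, adjusted p = 1.8e-04). Eif5 was lower, at 1765, 1892 and 1674 against 3099.6 to 4351 (-1.07 ± 0.13, adjusted p = 8.3e-05), but averaged over its probe sets it came to -0.30, not called. Both groups of Eif3k still lay below its total RNA at 30 min.

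A list of other translation genes (elongation and release factors, synthetase scaffolds, regulators of eIF2 and of the cap and poly(A) tail, and mitochondrial translation factors) was written from general knowledge, with earlier results of these data known. Of its 39 genes on the array, 34 were tested at 30 min, with 4 called higher and 12 lower in newly transcribed RNA, beside 14.4% and 29.1% of all genes. The higher ones included 3 regulators of the eIF2 stress response: Ppp1r15a (GADD34) at 2.55 ± 0.21 and Ppp1r15b (CReP) at 1.95 ± 0.12, which direct the dephosphorylation of eIF2, and Atf4 at 1.27 ± 0.11. The fourth was Mtrf1l, a mitochondrial release factor gene, at 1.27 ± 0.13. The same 4 were called higher at 60 min and in 2F. The lower ones included Mcts1, a partner of noncanonical initiation, at -2.43 ± 0.14, and Aimp1 and Aimp2, scaffolds of the multisynthetase complex, at -1.79 ± 0.09 and -1.47 ± 0.16. After 2 h of actinomycin D 5 of 36 were called lower, beside 10.9% of all genes, among them Ppp1r15b at -2.39 ± 0.15, Ppp1r15a at -1.88 ± 0.19 and Atf4 at -1.05 ± 0.10. For scale, Myc, a short-lived transcript, changed by 2.77 ± 0.15 in newly transcribed RNA at 30 min and by -5.38 ± 0.19 at 2 h of actinomycin D.

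The series was made for half-life determination, and half-lives of single members are not given because the scale could not be held. The line of pre-existing over total on newly transcribed over total RNA, over 9047 probe sets, had a slope of -0.033 and gave a median of 34.6 h for 61 members. That median was 13.2 h without replicate 2 and 247 h without replicate 3, and without replicate 1 the slope was positive and gave no value.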

How the data were processed

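The deposited values are intensities on a linear scale, made by the authors with GCRMA per the submitters' processing notes. Its version is not given in the sources used here. RNA was extracted with Trizol and labelled by the Affymetrix one-cycle protocol, per the labels' protocols. Their log2 was taken here, 61 control probe sets were left out, and limma 3.58.1 in R 4.3.3 (lmFit, eBayes) was run on those of the other 31390 whose mean log2 over the arrays of a fit reached 5, an intensity of 32. The fits were tested on simulated data. The number of arrays limits the precision. Probe sets were named from the platform annotation, and all 79 member symbols matched RefSeq. Members, lists and the naming rule (the called members with the largest changes, up to 10 in each direction, their paralogues and reference genes) were chosen with earlier results of these data known.

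Arrays with the same number departed from their groups together, with correlations above 0.1 in all pairs, in these comparisons: 1 h (0.143 to 0.183) and 2 h (0.259 to 0.576) of actinomycin D, and at 60 min newly transcribed (0.149 to 0.299), pre-existing (0.219 to 0.391) and total RNA (0.122 to 0.33). This pairing comes from the data, since the labels name no shared culture. Alternatives were other filters, scalings, probe set choices, priors, a floor, arrays left out and the replicate block.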

Additional observations from a re-analysis of the deposited data

Results flagged for a closer look

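Eif4a1 in total RNA at 30 min had 1 array, replicate 3, far from the others, at a log2 intensity of 12.67 against 12.39 to 12.52. Of 44 members and groups of 9 arrays examined this was the 1 flagged, and chance alone flags about 1 in 20.

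The change of newly transcribed over total RNA differed between the first 60 min and the 30 min experiment, by an interaction term in limma, for 12 members. It was higher at 60 min for Vars by 1.86, Cars by 1.74, Eif6 by 1.45, Eif2ak1 by 1.43, Eif1b by 1.40, Farsa by 1.36, Aars by 1.22, Eif3d by 1.15, Tars2 by 1.15 and Eif2b5 by 1.14 on the log2 scale. The interaction was negative for Iars2 at -1.31 and Yars2 at -1.10. The dose of 4sU also differed, at 200 µM and 500 µM. Total RNA replicate 2 at 60 min was low for several of these genes, such as Vars at 101 beside 453 and 208. Without it 1 of the 12 was called, Cars, and with the 30 min sets averaged 0 were called.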

How the results depend on the processing

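Each count of called members was recomputed under the alternatives. No called value of a member named here changed sign, but the balance of higher and lower calls turned in some settings. Beside the values here, 293 of the recomputed counts stayed within 1.5 times the reported one and 57 moved farther. With the adjusted p alone and no fold minimum, higher and lower calls were 13 and 6 for actinomycin D at 1 h, 6 and 5 at 2 h, 11 and 15 from 1 h to 2 h, 8 and 54 for newly transcribed over total RNA at 30 min, 11 and 41 in 2F, 3 and 14 for total RNA in 2F, and 3 and 17 for 15 min against 30 min. With a mean log2 of 7 or more, lower calls were 1 at 1 h, 0 at 2 h, 0 from 1 h to 2 h (1 higher) and 0 for total RNA at 60 min. Quantile normalization gave 0 lower from 1 h to 2 h, 2 lower for total RNA at 60 min and 2 lower for 15 min against 30 min. With equal array medians there was 1 higher at 2 h, 4 higher and 0 lower from 1 h to 2 h, 1 higher in 2F, 2 higher in pre-existing RNA and 2 lower for total RNA at 60 min. The mean over probe sets gave 6 higher at 30 min, 15 lower at 60 min, 12 lower in 2F and 0 lower for 15 min against 30 min. With all arrays in 1 fit, pre-existing RNA had 8 higher and total RNA at 60 min 1 higher and 4 lower. With no filter, pre-existing RNA had 2 higher and 15 min against 30 min 2 lower. Total RNA at 60 min had 0 lower with a floor of 32 and 2 with an intensity trend. The replicate block gave 2 higher in pre-existing RNA, lost Qars at 60 min and changed no other call of a member in the paired comparisons. Leaving out both arrays that stand apart gave 5 higher at 60 min. Leaving out total RNA replicate 2 gave 3 lower for total RNA at 60 min and 1 call for 60 min against 30 min, and averaging the sets gave 0.

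With 1 replicate left out of both groups compared at a time, counts ranged from 0 to 1 for lower calls from 1 h to 2 h, from 2 to 6 higher and 11 to 27 lower at 60 min, from 0 to 1 higher in pre-existing RNA, from 0 to 3 lower for total RNA at 60 min, from 0 to 1 higher for total RNA in 2F, and from 1 to 2 lower for 15 min against 30 min. The half-life median was 13.2 h to 247 h, and 58.8 h with a mean log2 of 8 or more. With equal array medians, the median of all probe sets at 30 min went from -0.14 to -0.438 and calls that were higher from 48.1% to 36.9%. That share went from 23.7% to 58.5% from 1 h to 2 h, from 21.2% to 33.8% in pre-existing RNA and from 77.3% to 63.9% for total RNA in 2F. The causes were not tested. Members near the intensity of 32, mostly mitochondrial, are the least certain.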
